A study of Mus musculus with 63 samples.

Results

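RNA levels of 48 genes were followed in mouse peritoneal macrophages: 17 genes of the vacuolar proton pump (V-ATPase) and 31 genes of autophagy. The members were chosen by name from knowledge of the pathways and matched by symbol to the identifiers of the count table, which lists 56748 genes. All 17 pump and all 31 autophagy members were found, and all 48 passed the filter on low counts that left 22147 genes for testing.

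The V-ATPase is a rotary pump of lysosomes, endosomes and some plasma membranes. Its cytosolic V1 part (subunits A to H) splits ATP, and its membrane part V0 (subunits a, c, c'', d and e) moves protons into the lumen, which acidifies the lysosome. Macrophages need this acid to digest what they engulf. Autophagy encloses the cell's own material in a double membrane that fuses with the lysosome: the ULK1 complex starts it, the Beclin 1-VPS34 lipid kinase marks the site, conjugation enzymes attach LC3 and GABARAP proteins to the membrane, receptors such as p62 (Sqstm1) bring cargo, and TFEB, TFE3 and MITF are transcription factors of lysosomal and autophagy genes. LRRK2, the kinase altered in these mice, phosphorylates Rab proteins of the same endolysosomal system.

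According to its design text, the aim was to see what the R1441C change in Lrrk2 does to myeloid cell functions, those of the lysosome included, in each sex and at each age. The cells came from R1441C knock-in mice, which carry the change in their own Lrrk2 gene, and from wild-type B6 controls, at 2 to 3 months (labelled young) or 18 to 21 months (labelled old). All mice had received 3% thioglycollate broth 72 h earlier, which draws macrophages into the peritoneum, and buprenorphine, and adherent cells were kept for 18 h with either vehicle or IFN-γ (interferon-gamma, 100 U). The labels form 16 groups of 63 libraries. Wild-type females gave 3 young untreated, 3 young IFN-γ, 5 old untreated and 5 old IFN-γ libraries, and wild-type males gave 3, 5, 3 and 5 in the same order. Knock-in females gave 5, 2, 5 and 5 libraries, and knock-in males gave 3, 3, 3 and 5. All 3 libraries of old untreated knock-in males carry another label that says IFN-γ, and they were kept as untreated, as titled. The labels do not say that the libraries of a group came from separate animals, so p-values measure the spread between these libraries, which may in part be technical. The knock-in is a germline change, elicited cells differ from the resident macrophages of the peritoneum, and the counts hold no base calls with which the genotype could be checked.

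The promoters of some members carry the letters CACGTG, the E-box that TFEB, TFE3 and MITF are known to bind. RefSeq windows of 300 bases (250 before to 50 after the start, GRCm38.p6) were in hand for 12 of the 17 pump and 25 of the 31 autophagy members. CACGTG, which reads the same on both strands, was in 4 of the 12 pump genes (33.3%), in 4 of the 25 autophagy genes (16%) and in 8.09% of all 27025 genes with such windows, expressed or not. The longer TCACGTG, searched on both strands and always holding a CACGTG, was in 4 pump genes, in 3 autophagy genes (12%) and in 4.29% of those 27025 genes. The median share of G and C letters was 57.7% in pump, 59.3% in autophagy and 52.7% in all windows. These shares of matches were not adjusted for that difference. The 4 pump promoters and that of Atg3, which holds 2 matches, are shown from 150 bases before to 10 bases after the start, 5′ to 3′ on the gene's strand, with the CACGTG letters in capitals.
Atp6v0b, chr4:117887320-117887479, minus strand: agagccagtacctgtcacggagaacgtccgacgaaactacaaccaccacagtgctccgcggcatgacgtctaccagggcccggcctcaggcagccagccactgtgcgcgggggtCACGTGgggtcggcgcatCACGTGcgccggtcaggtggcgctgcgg
Atp6v0d1, chr8:105566055-105566214, minus strand: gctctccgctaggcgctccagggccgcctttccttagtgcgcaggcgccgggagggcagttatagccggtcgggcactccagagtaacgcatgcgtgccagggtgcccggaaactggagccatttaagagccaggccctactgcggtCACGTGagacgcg
Atp6v0e, chr17:26676246-26676405, plus strand: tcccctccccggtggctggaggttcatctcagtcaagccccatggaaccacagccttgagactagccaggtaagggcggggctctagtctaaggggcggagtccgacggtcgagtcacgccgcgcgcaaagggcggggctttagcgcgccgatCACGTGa
Atp6v1a, chr16:44139250-44139409, minus strand: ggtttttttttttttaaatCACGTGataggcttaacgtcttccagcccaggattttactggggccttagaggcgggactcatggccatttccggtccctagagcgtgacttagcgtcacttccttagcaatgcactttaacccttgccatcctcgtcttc
Atg3, chr16:45158679-45158838, plus strand: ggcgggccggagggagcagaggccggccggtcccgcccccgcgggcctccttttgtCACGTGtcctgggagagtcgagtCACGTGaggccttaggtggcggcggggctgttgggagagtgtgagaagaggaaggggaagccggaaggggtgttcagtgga
The matches began at -36 and -18 in Atp6v0b (subunit c''), at -3 in Atp6v0d1 (subunit d1), at 4 in Atp6v0e (subunit e1), at -131 in Atp6v1a (the catalytic subunit A) and at -94 and -71 in Atg3, the E2-like enzyme of LC3 lipidation, with the start as position 1. The other autophagy genes with a match were Atg5, Atg7 and Atg14. Of these 4 pump genes, 3 were higher and Atp6v1a was lower with the age label in wild-type libraries (described below), where 62.1% of all genes were called, and the matches are a description of letters and not of bound sites.

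The genes were abundant, and the pump more so than autophagy. On the FPKM scale (fragments scaled by gene length and library size, from the authors' deposited table), which allows genes to be compared per length, the median over 63 libraries was highest for Atp6v0c, the proton-carrying ring subunit, at 469. Gabarap followed at 342, then Atp6v1g1 (subunit G1) at 230, Tcirg1 (subunit a3) at 227 and Atp6v0d2 (subunit d2) at 183. The pump members had medians between 13.5 (Atp6v1h, subunit H) and 469, with a middle value of 111. The autophagy members ran from 2.41 (Rb1cc1, the FIP200 scaffold of the ULK1 complex) to 342, with a middle value of 10.3. The ranges over libraries overlapped in all 47 neighbouring pairs of this order, although some pairs kept their order within every library: Gabarap was above Atp6v1g1, Atp6v0d1 above Atp6v1f, Gabarapl2 above Atg7 and Calcoco1 above Wipi2 in 63 of 63 libraries. Atp6v0c was above Gabarap in 60 of 63, whereas Atp6v1g1 was above Tcirg1 in 34. Atp6v0d2 had the widest range of the genes shown at the top, from 7.77 to 564 FPKM.

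**Figure D1:**
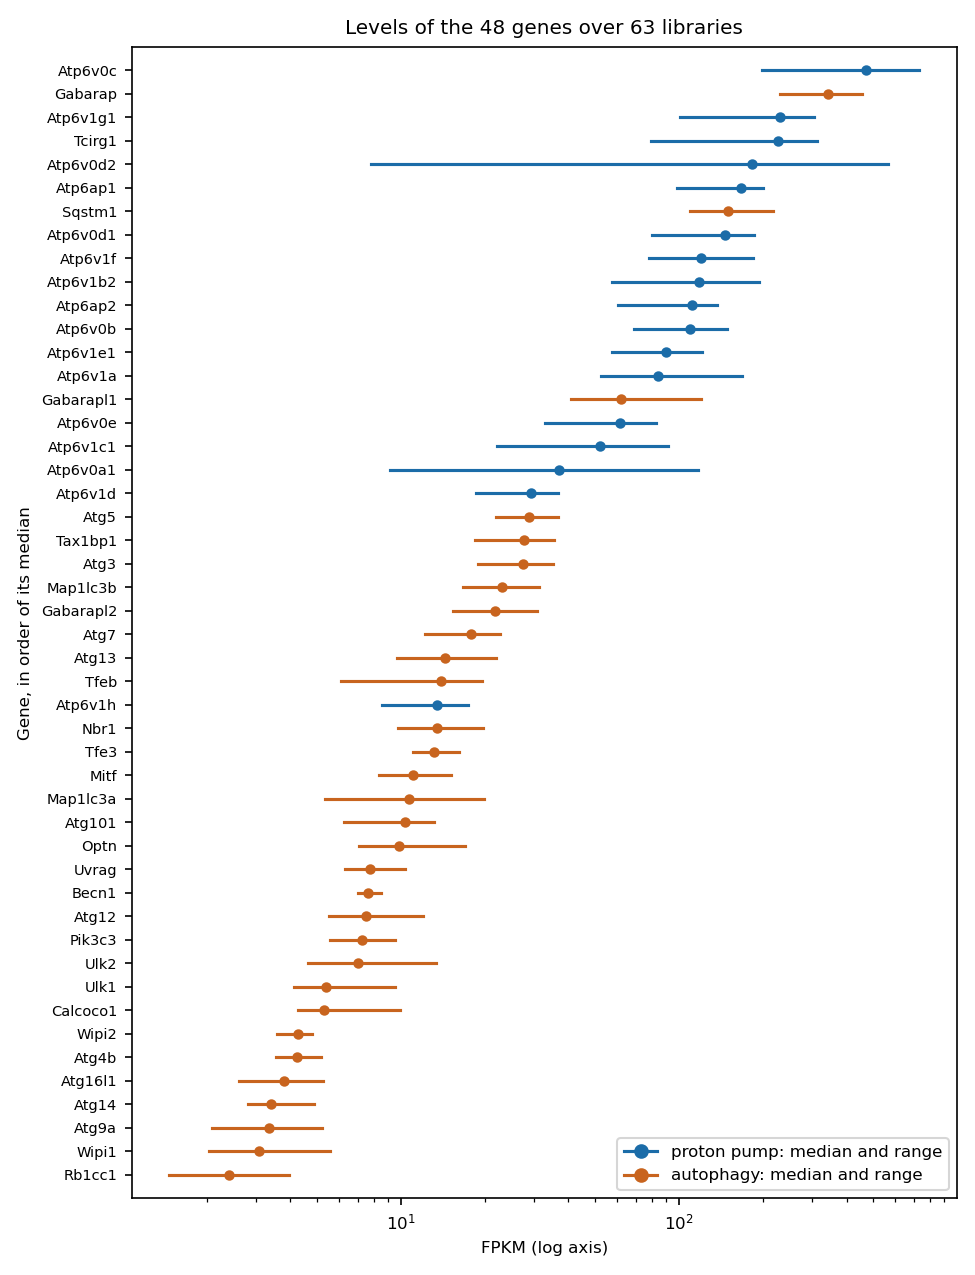
Median (point) and range (line) of FPKM over 63 libraries for each of the 48 genes, on a log axis, pump genes in blue and autophagy genes in orange. Atp6v0c leads with a median of 469 and Rb1cc1 is lowest at 2.41, and the lines of Atp6v0d2 (7.77 to 564) and Atp6v0a1 (9.16 to 117) are long.

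Within families that share a role, 1 member often dominated. Of the LC3 and GABARAP proteins, Gabarap was the highest on the FPKM scale in all 63 libraries and made up 63.8% to 80.1% of the summed FPKM of the 5 genes. Gabarapl1 followed with a median share of 13.5%, then Map1lc3b with 4.80%, Gabarapl2 with 4.56% and Map1lc3a with 2.06%. Tcirg1 was the highest of the a subunits measured (Tcirg1, Atp6v0a1, Atp6v0a2) in all 63 libraries. Ulk2 exceeded Ulk1, the other kinase of the initiating complex, in 62 of 63 libraries. Tfeb, Tfe3 and Mitf lay close together, with medians of 14.0, 13.2 and 11.1 FPKM, and Tfeb was the highest of the 3 in 40 libraries.

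Total counts were 73593674 to 106644049 per library, and 8 macrophage markers summed to between 19478 and 39173 CPM (counts per library size, adjusted by TMM) in every library. Lrrk2 itself was at 23.4 to 269 CPM in knock-in and 24.3 to 226 CPM in wild-type libraries, and since the knock-in alters the protein and does not remove the gene, its level is no check of the genotype label. Some labels did not match the genes they should move. Gbp2, an IFN-γ-induced GTPase, ranged from 4372 to 7510 CPM across the 36 libraries with the label old and from 13.5 to 883 CPM across the 27 with the label young, whatever their treatment label. All 4 IFN-γ-induced genes examined (Gbp2, Cxcl9, Ciita, Nos2) were higher with the age label in both genotypes, Gbp2 by 4.61 ± 0.33 log2 (SE) in wild-type. With the IFN-γ label, Gbp2 and Ciita were higher in wild-type libraries and none of the 4 in knock-in libraries. Xist was low in 2 libraries labelled female, knock-in old IFN-γ 4 and 5. For these reasons groups are named as labelled, and ageing and IFN-γ cannot be told apart from these labels.

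Wild-type IFN-γ females old 2 and young 1 stood apart from the other libraries. They had been picked for their lysosomal genes, with earlier results of these data known. Low levels of the pump, which acts in the lysosome, are thus no independent observation in them. Their summed pump levels were 4002 and 3475 CPM, against 6373 to 9673 in the other 61 libraries. For 12 of the 17 pump members and 5 of the 31 autophagy members both libraries lay below all others. The share of all genes for which this held was not counted, so these counts have no background and describe the members only. Markers of resident peritoneal macrophages (Gata6, Timd4, Icam2, Prg4, Selp) summed to 1934 and 1736 CPM in them and to 24.7 to 268 CPM elsewhere, and 9 B-cell markers to 881 and 1423 CPM against 105 to 356. Their 7 mast cell and basophil markers summed to 74.6 and 115 CPM, against at most 43.4 elsewhere, and their 7 mesothelial and fibroblast markers to 15.95 and 39.8 CPM, against at least 42.2. Whether these cells account for the low pump levels was not tested. Bulk RNA does not tell fewer cells of a type from less RNA per cell.

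**Figure D2:**
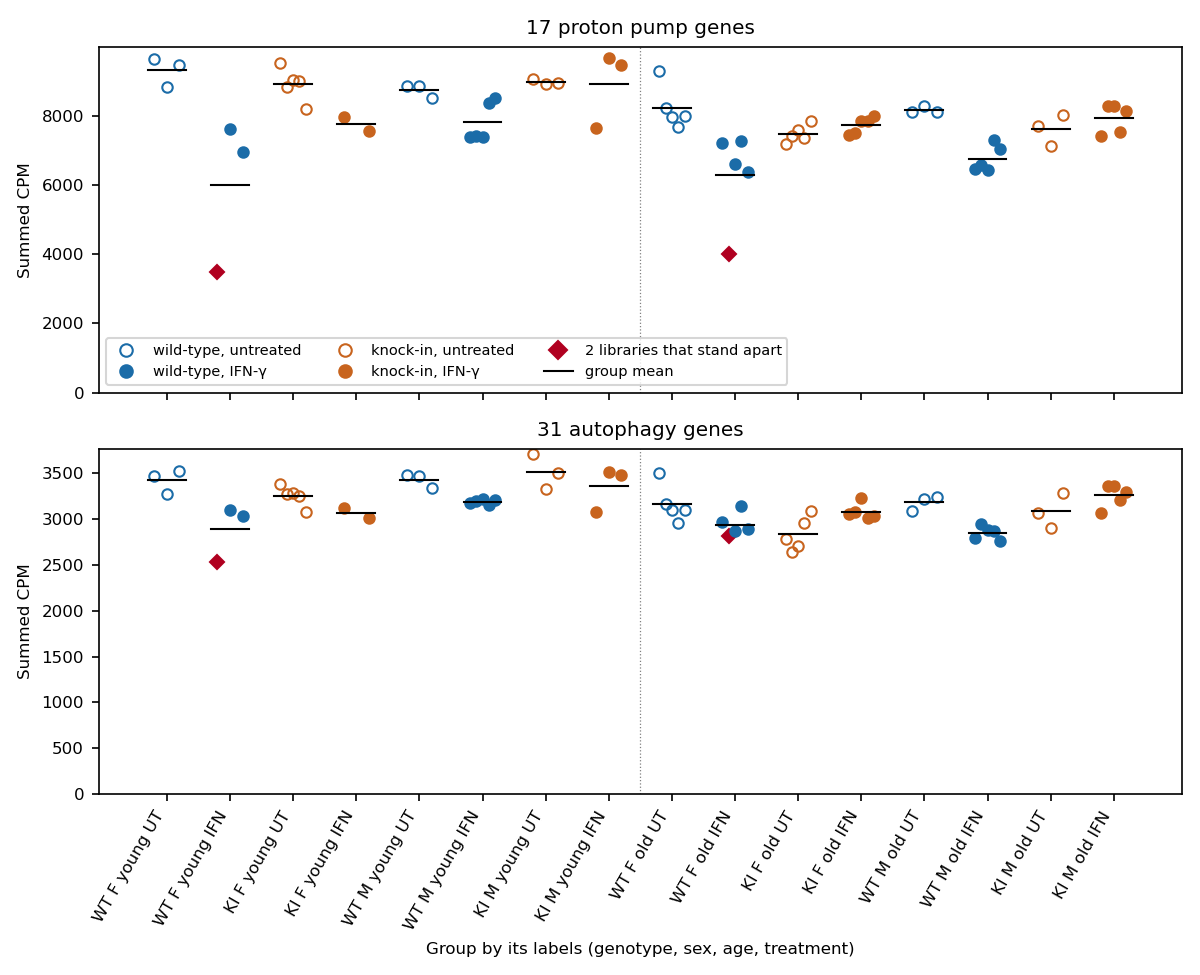
Summed CPM of the 17 pump genes (top) and 31 autophagy genes (bottom) in each library, by labelled group, with group means as lines and both axes from 0. The red diamonds at 3475 and 4002 CPM are the wild-type IFN-γ females young 1 and old 2, and the other 61 libraries lie between 6373 and 9673.

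With the age label the pump genes split in opposite directions. Of 17 members, 9 were higher and 5 were lower in wild-type libraries labelled old (median change 0.13 log2, against -0.08 over all genes tested). In knock-in libraries 7 were higher and 6 lower (median 0.09, against -0.05). The share of all genes called was 62.1% for the wild-type contrast (28.4% higher, 33.8% lower) and 60.7% for the other (28.1% higher, 32.7% lower), with 14 of 17 and 13 of 17 members called. Of the pump genes called in wild-type, 7 higher and 5 lower were called the same way in knock-in libraries. Calls are edgeR quasi-likelihood tests with Benjamini-Hochberg adjustment over all genes at 0.05, each the mean over 4 strata of sex and treatment label.

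**Figure D3:**
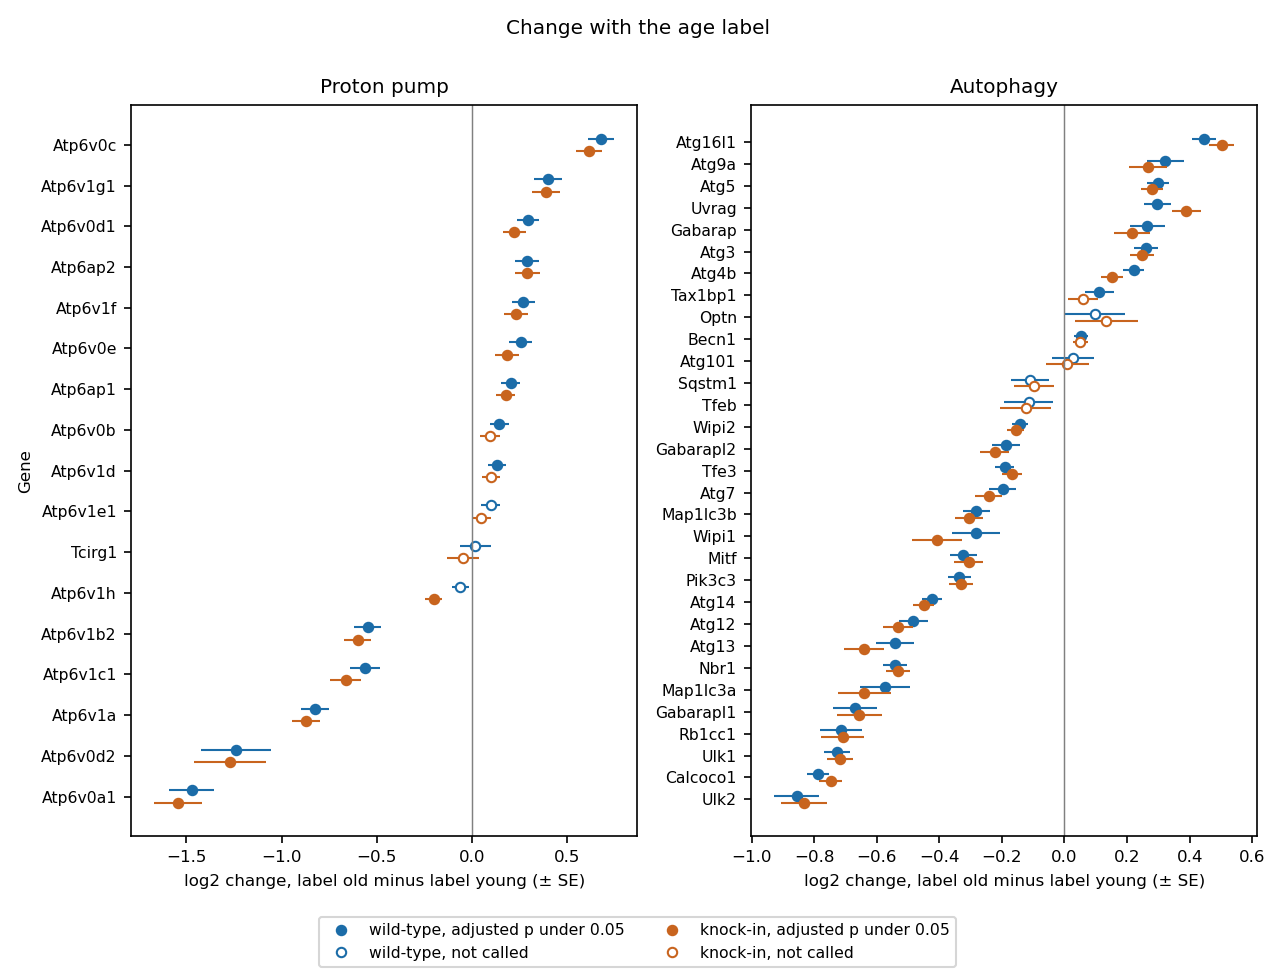
Log2 change (± SE) of each member between libraries labelled old and young, as the mean over 4 strata of sex and treatment label, in wild-type (blue) and knock-in (orange), with filled points for calls at 0.05. Both genotypes give nearly the same order, from Atp6v0a1 (-1.47 and -1.54) and Atp6v0d2 (-1.24 and -1.27) to Atp6v0c (0.68 and 0.61) among pump genes.

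Among the V0 genes, Atp6v0a1 (subunit a1) fell the most. It was at 58.5, 190 and 265 CPM (lowest, median, highest) over 36 old-labelled libraries, against 150.5, 569 and 766 CPM over 27 young-labelled ones. The overlap came from wild-type IFN-γ female young 1 at 150.5 CPM: the next lowest library labelled young was at 440.5 CPM, above all libraries labelled old. The change was -1.47 ± 0.12 log2 in wild-type (adjusted p = 1.02e-15) and -1.54 ± 0.12 in knock-in (adjusted p = 4.85e-16), by edgeR, and it was called in all 8 strata of genotype, sex and treatment label, in each of which 32.1% to 49.4% of all genes were called (16.4% to 23% higher, 15.7% to 26.4% lower). Tcirg1, the a3 isoform that is typical of osteoclasts and macrophage lysosomes, gave 0.02 ± 0.08 and -0.05 ± 0.09 and was called in neither genotype. Atp6v0a2, the a2 isoform of the Golgi and endosomes, was higher by 0.73 ± 0.04 in both genotypes. As a share of the summed FPKM of these 3 genes, Atp6v0a1 made up 6.33% to 15.4% in libraries labelled old and 21.7% to 33.4% in those labelled young, with no overlap over 63 libraries.

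The d subunits moved in opposite directions. Atp6v0d2, the isoform known from osteoclasts and macrophages, was at 20.5, 401 and 630 CPM over old-labelled libraries, against 100.2, 994.5 and 1547 CPM over young-labelled ones. The log2 change was -1.24 ± 0.18 in wild-type libraries, -1.27 ± 0.19 in the knock-in, and it was called in 7 of 8 strata. Atp6v0d1, the isoform of most tissues, was higher by 0.29 ± 0.06 and 0.22 ± 0.06. On the FPKM scale Atp6v0d2 exceeded Atp6v0d1 in 26 of the 27 libraries labelled young and in 16 of the 36 labelled old. The exception among the young was wild-type IFN-γ female 1, where the pump was low throughout. Atp6v0c rose in all 8 strata, from 647, 1193 and 1542 CPM in libraries labelled young to 933, 1928 and 2501 CPM in those labelled old (0.68 ± 0.07 in wild-type, 0.61 ± 0.07 in knock-in). Atp6v0c has 2 named pseudogenes, and reads shared with them could be split by the counting. Atp6v0e was higher in both genotypes (0.25 ± 0.06 and 0.18 ± 0.06), and Atp6v0b in wild-type (0.14 ± 0.05).

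**Figure D4:**
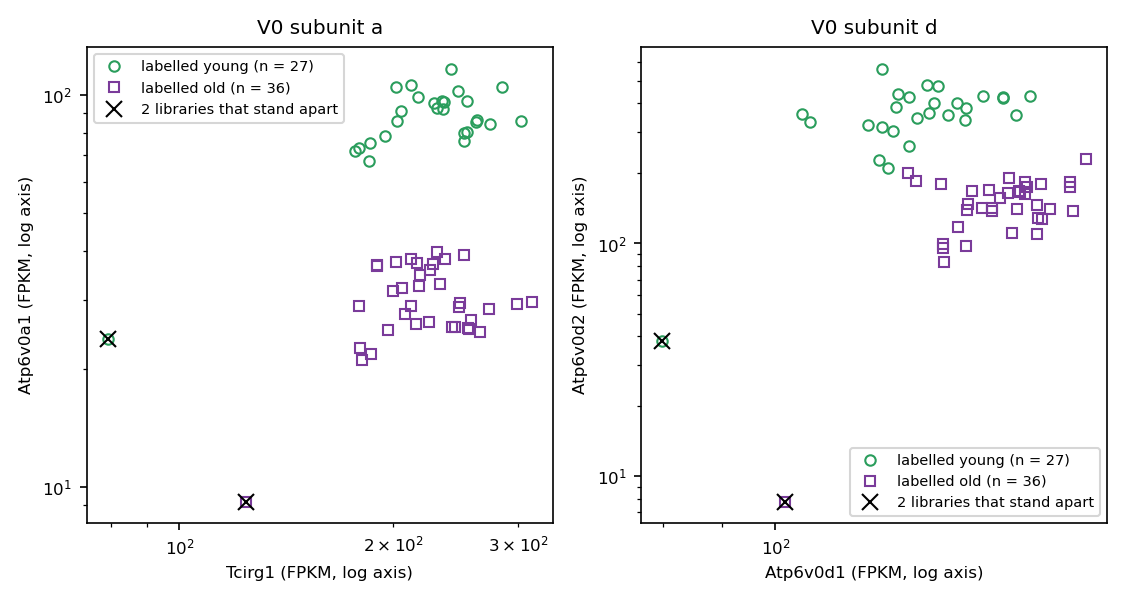
FPKM of paired V0 isoforms in 63 libraries on log axes: Atp6v0a1 against Tcirg1 (left) and Atp6v0d2 against Atp6v0d1 (right), by age label. Crosses mark the 2 libraries that stand apart. Libraries labelled young lie above those labelled old at a like level of Tcirg1, with Atp6v0a1 medians of 86.0 and 29.1.

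The V1 genes divided as well. The genes of the ATP-splitting head and its collar were lower: Atp6v1a at -0.82 ± 0.07 log2 in wild-type, Atp6v1b2 (the nucleotide-binding subunit B2) at -0.55 ± 0.07 and Atp6v1c1 (subunit C1) at -0.56 ± 0.08. Atp6v1a and Atp6v1b2 were called in all 8 strata and Atp6v1c1 in 7. Atp6v1a stood at 308, 477 and 581 CPM over old-labelled libraries, against 348, 864 and 1024 CPM over young-labelled ones. Atp6v1h was lower in knock-in libraries (-0.20 ± 0.05) and gave -0.06 ± 0.04 in wild-type. Without the 2 libraries that stand apart it was lower in wild-type as well (-0.11 ± 0.03, adjusted p = 0.00608 by edgeR). Of the 4 members that encode stalk subunits 3 were higher in wild-type: Atp6v1g1 by 0.40 ± 0.07, Atp6v1f (subunit F) by 0.27 ± 0.06 and Atp6v1d (subunit D) by 0.13 ± 0.05. In knock-in libraries Atp6v1d did not pass the test (0.10 ± 0.05). The remaining stalk gene, Atp6v1e1 (subunit E1), gave 0.10 ± 0.05 and 0.05 ± 0.05 and was called in neither genotype. The accessory proteins Atp6ap1 (0.20 ± 0.05) and Atp6ap2 (0.29 ± 0.06), the latter also known as the prorenin receptor, were higher in both genotypes. No pump gene was called in both directions over the 8 strata. Over the 8 strata 72 of 136 pump tests were called, and far fewer with a block for replicate numbers, as given in the last section. As background, the shares of all genes called higher and lower in wild-type strata were 22% and 22.5% (44.5% in all) for untreated females, 17.8% and 19.2% (37%) for IFN-γ females, 18.7% and 18.1% (36.9%) for untreated males and 19.3% and 20.1% (39.4%) for IFN-γ males. In knock-in strata they were 22% and 22.8% (44.8%), 23% and 26.4% (49.4%), 16.4% and 15.7% (32.1%), and 18.4% and 17.1% (35.5%) in the same order.

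Of the autophagy genes, 9 of 31 were higher and 18 lower with the age label in wild-type libraries, and 7 and 18 in knock-in libraries, with the same backgrounds as above. The median changes were -0.19 and -0.22 log2. All 18 lower genes and 7 of the higher ones were called in both genotypes, and 9 were lower in each of the 8 strata: Atg12, Atg13, Atg14, Calcoco1, Gabarapl1, Nbr1, Pik3c3, Ulk1 and Ulk2. Atg16l1 was higher in each of the 8. Of 248 autophagy tests in these strata 164 were called, and no gene was called in both directions.

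Of the 5 initiation genes 4 fell. Ulk1 was at 26.9, 31.03 and 37.3 CPM over old-labelled libraries, against 41.1, 51.7 and 59.7 CPM over young-labelled ones, so the ranges did not overlap. Ulk1 changed by -0.73 ± 0.04 in wild-type libraries and by -0.72 ± 0.04 in the knock-in. Ulk2 changed by -0.86 ± 0.07, Rb1cc1 by -0.71 ± 0.07 and Atg13, the regulator that binds ULK1, by -0.54 ± 0.06 in wild-type. Atg101, the partner of ATG13, gave 0.03 ± 0.07 and was not called. Of the lipid kinase complex, Pik3c3, which encodes VPS34, was lower (-0.34 ± 0.04), and so was Atg14, which directs it to autophagosomes (-0.42 ± 0.03). Uvrag, which directs the same kinase to endosomes, was higher (0.30 ± 0.04). Becn1 moved least of the genes called, by 0.05 ± 0.02, and passed the threshold in wild-type (adjusted p = 0.0446 by edgeR, against 0.0644 in knock-in).

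The conjugation genes went both ways. Atg16l1, which brings the LC3 ligase to the membrane, was at 35.4, 40.4 and 49.1 CPM over old-labelled libraries, against 25.1, 29.8 and 33.5 CPM over young-labelled ones, again without overlap. It changed by 0.45 ± 0.04 and 0.50 ± 0.04. Atg5 (0.30 ± 0.03) and Atg3 (0.26 ± 0.04) were higher, as were Atg4b, the protease that trims LC3 (0.22 ± 0.03), and Atg9a, the lipid scramblase (0.32 ± 0.06). Atg12, which is joined to ATG5, was lower (-0.48 ± 0.05), and so was the E1-like Atg7 (-0.20 ± 0.04). Of the membrane proteins that are conjugated, Gabarap was higher (0.27 ± 0.05) while Gabarapl1 (-0.67 ± 0.07), Map1lc3a (-0.57 ± 0.08), Map1lc3b (-0.28 ± 0.04) and Gabarapl2 (-0.19 ± 0.04) were lower. The median share of Gabarap in the FPKM of the 5 genes was 78.1% in libraries labelled old and 68.2% in those labelled young.

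The cargo receptors Calcoco1 and Nbr1 separated the age labels fully. Calcoco1, a receptor for the endoplasmic reticulum, was at 24.5, 27.4 and 32.5 CPM over old-labelled libraries, against 40.2, 45.9 and 57.2 CPM over young-labelled ones (-0.79 ± 0.04 in wild-type, adjusted p = 2.79e-26 by edgeR). Nbr1, which acts beside p62, was at 67.2, 83.2 and 99.4 CPM against 101.0, 121 and 137 CPM (-0.54 ± 0.04). With Ulk1 and Atg16l1 these made 4 of the 48 members without overlap between the age labels, where 6.62% of all genes tested had none (4.79% higher, 1.84% lower). Tax1bp1, another receptor, was higher in wild-type (0.11 ± 0.05) and did not pass in knock-in libraries (0.06 ± 0.05). Sqstm1 (-0.11 ± 0.06) and Optn (0.10 ± 0.10) were not called. Of the transcription factors, Tfe3 (-0.19 ± 0.03) and Mitf (-0.32 ± 0.04) were lower and Tfeb (-0.11 ± 0.08) was not called. Some of these wild-type calls turned on the 2 libraries that stand apart: without them Tax1bp1 did not pass (0.08 ± 0.04, adjusted p = 0.119 by edgeR), and Sqstm1 (-0.15 ± 0.06, adjusted p = 0.0232) and Tfeb (-0.14 ± 0.06, adjusted p = 0.0270) were lower. The lipid-binding Wipi1 (-0.28 ± 0.08) and Wipi2 (-0.14 ± 0.03) were lower.

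Related genes outside the members, from lists of the same pathways, were called as follows, beside 62.1% of all genes in the same contrast. Of 4 tested pump isoforms that are no members, 2 were higher and 1 lower in wild-type. Of 11 pump assembly and regulator genes 3 were higher and 5 lower, with Dmxl2 (-1.40 ± 0.11), Oxr1 (-0.82 ± 0.07) and Dmxl1 (-1.06 ± 0.12) lower with the smallest p-values. Of 18 genes of mTORC1 at the lysosome 3 were higher and 8 lower, among them Flcn, folliculin (-0.72 ± 0.04), Tsc1 (-0.59 ± 0.05) and Lamtor5 (0.63 ± 0.06). Of 28 further autophagy genes 8 were higher and 16 lower, led by Atg4c (-0.68 ± 0.04), Atg10 (0.63 ± 0.04) and the mitophagy receptor Bnip3l (-0.89 ± 0.06). Beside these, 3 of 8 macrophage markers were higher and 3 lower in wild-type libraries, and 4 of 7 mesothelial and fibroblast markers were lower. Of 4 tested neutrophil markers 2 were higher and 1 lower, of 9 T and NK cell markers 1 and 2, of 9 B-cell markers 0 and 2, and of 5 resident macrophage markers 1 and 1, while 0 mast cell and basophil and 0 red cell markers were called. In knock-in libraries the counts higher and lower were 3 and 4 for macrophage, 0 and 5 for mesothelial and fibroblast, 1 and 0 for neutrophil, 3 and 2 for T and NK cell, 0 and 1 for B-cell and 1 and 1 for resident macrophage markers, and 0 for the others. Their part in the changes was not tested.

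With the IFN-γ label most pump genes were lower in wild-type libraries, averaged over the strata of sex and age label, and none passed the test in knock-in libraries. In wild-type, 15 of 17 were lower and 0 higher (median -0.31 log2, against -0.01 over all genes), where 31.3% of all genes were called (15.4% higher, 15.9% lower). All 17 estimates were negative, from -0.82 to -0.15. Of the autophagy genes 17 of 31 were lower and 1 higher, with a median of -0.10. In knock-in libraries edgeR called 0 pump and 0 autophagy members, where 7.77% of all genes were called, 1 and 2 members had an unadjusted p under 0.05, and DESeq2 called 0 of each. That knock-in mean joins strata that differed: the median pump change was -0.32 log2 in young females (16 of 17 estimates negative), 0.07 in old females, -0.004 in young males and 0.09 in old males. In wild-type the medians were -0.39, -0.32, -0.12 and -0.24 in the same order. The untreated side of knock-in old males has conflicting treatment labels, so its change and the knock-in mean depend on which label is right. Without wild-type IFN-γ females old 2 and young 1 the pump count in wild-type was again 15 lower (median -0.24) and the autophagy count 12 lower and 0 higher, with Atg12, Atg14, Becn1, Optn and Tax1bp1 no longer called. The share of all genes called without these 2 libraries is not given here.

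**Figure D5:**
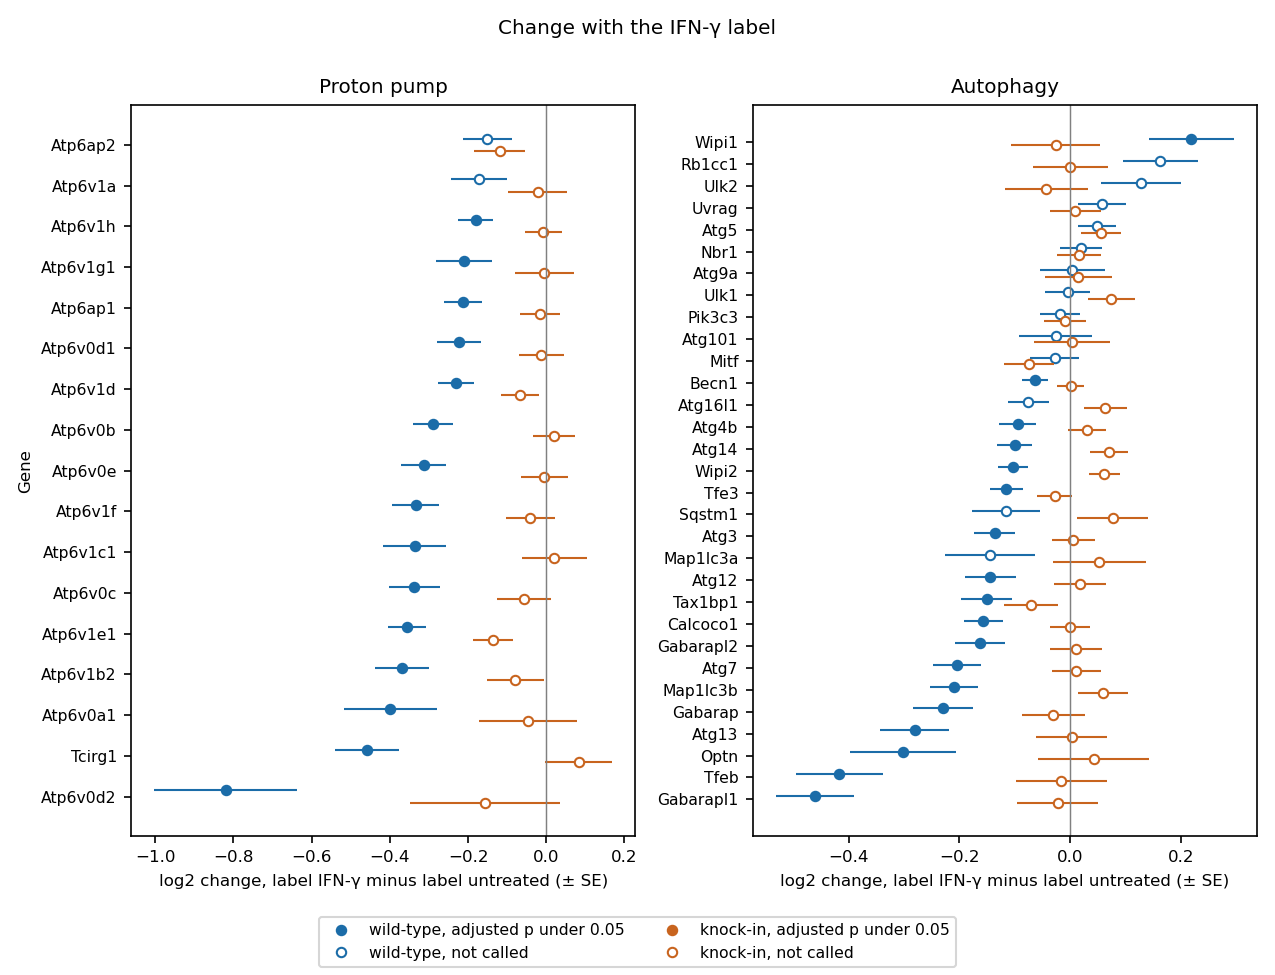
Log2 change (± SE) of each member between libraries labelled IFN-γ and untreated, as the mean over 4 strata of sex and age label, in wild-type (blue) and knock-in (orange), with filled points for calls at 0.05. All 17 pump genes lie left of 0 in wild-type, down to Atp6v0d2 at -0.82, and no knock-in point is filled.

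The pump genes that were lower with the smallest p-values in wild-type were Atp6v1e1 (-0.36 ± 0.05, adjusted p = 1.89e-07 by edgeR), Atp6v0b (-0.29 ± 0.05), Tcirg1 (-0.46 ± 0.08) and Atp6v1f (-0.33 ± 0.06). Atp6v1e1 was at 407, 380 and 439 CPM in young untreated wild-type females and at 227, 320 and 284 CPM with the IFN-γ label. In old males the libraries were at 424, 463 and 391 CPM untreated and at 307, 336, 318, 347 and 323 CPM with the label. In both strata the groups did not overlap. In young males the values were 375, 408 and 362 CPM against 333, 334, 336, 344 and 351 CPM, a smaller step, also without overlap. Tcirg1 in young wild-type females was at 1410, 1108 and 1328 CPM untreated and at 352, 900 and 842 CPM with the label, where the lowest is 1 of the 2 libraries that stand apart and the other IFN-γ libraries were also below all untreated ones.

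Atp6v0d2 had the largest change of the pump genes between the treatment labels in wild-type libraries, -0.82 ± 0.18. It was at 1547, 1180 and 1183 CPM in young untreated females and at 100.2, 712 and 568.4 CPM with the label. In old females it was at 630, 518, 536, 472 and 461 CPM untreated, and at 382, 20.5, 323, 305 and 227 CPM with the label. The groups did not overlap in either age. In wild-type males they did, with -0.28 ± 0.36 in young and -0.44 ± 0.36 in old libraries, neither called. Knock-in females were at 1143, 1088, 1300.4, 1299 and 1052 CPM young untreated and at 988 and 904 CPM with the label, and at 539, 490.5, 479, 471 and 453 CPM old untreated and 373, 381, 349.6, 399 and 388 CPM with it. These groups did not overlap either, but the changes (-0.32 ± 0.43 and -0.36 ± 0.32) were not called. All groups share 1 fit, so the 2 wild-type libraries that stand apart also enter the errors of the knock-in and male strata. Without those 2 libraries the change averaged over wild-type strata was -0.62 ± 0.09. The single strata without them are not given here for this gene. Atp6v1a (-0.17 ± 0.07) and Atp6ap2 (-0.15 ± 0.06) were the 2 pump genes not called.

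Among the autophagy genes with the IFN-γ label, Gabarapl1 (-0.46 ± 0.07, adjusted p = 1.24e-06 by edgeR), Tfeb (-0.42 ± 0.08), Map1lc3b (-0.21 ± 0.04) and Atg7 (-0.20 ± 0.04) were lower in wild-type with the smallest p-values. Gabarapl1 in old males was at 123, 141 and 115 CPM untreated and at 81.8, 93.6, 86.0, 90.6 and 88.4 CPM with the label. Tfeb in the same groups was at 87.2, 82.8 and 81.1 CPM and at 61.99, 64.2, 60.9, 70.6 and 69.3 CPM. Neither pair of groups overlapped. Wipi1 was the 1 gene called higher (0.22 ± 0.08, adjusted p = 0.025), and without the 2 libraries that stand apart it gave 0.11 ± 0.06 (adjusted p = 0.19). It also missed the threshold without any 1 of wild-type young IFN-γ female 1, young untreated female 1 and old untreated males 1 and 2 (0.175 to 0.201). Wipi1 stood at 23.5 and 22.6 CPM in wild-type IFN-γ females young 1 and old 2, which stand apart, and at 9.31 to 15.98 CPM in the other wild-type IFN-γ females. The starting kinases Ulk1 (-0.01 ± 0.04) and Ulk2 (0.13 ± 0.07), lower with the age label, were not called.

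The number of calls varied over the strata. In young and old wild-type females 12 and 11 pump genes and 9 and 5 autophagy genes were lower, where 16.6% and 20.1% of all genes were called (6.52% and 11% lower). In young wild-type males 0 pump and 0 autophagy genes were called by edgeR (0 and 6 at an unadjusted p under 0.05, 0 and 0 by DESeq2), where 0.438% of genes were, and in old males 1 and 2 (Atp6v1e1, Gabarapl1, Optn), where 2.89% were (1.81% lower). Without the 2 libraries that stand apart, the pump counts were 5 and 7 in young and old females and 9 in old males, and the autophagy counts 2, 1 and 4. The shares of all genes called without them are not given here, so these shifts cannot be read as particular to the members. The difference between the sexes in this response was not tested. In young knock-in females, with 2 IFN-γ libraries, 4 pump genes were lower (Atp6v0d1, Atp6v0e, Atp6v1d, Atp6v1e1), Atg3 and Gabarap were lower, and Ulk1 and Atg16l1 were higher, where 21.9% of genes were called (11.8% higher, 10.1% lower). In old knock-in females Sqstm1 was higher (0.33 ± 0.11), where 6.55% were (2.77% higher), and in knock-in males 0 members were called by edgeR or DESeq2 (0 pump and 1 autophagy genes at an unadjusted p under 0.05 in young males, 0 and 4 in old males), where 0.0813% and 0.176% were.

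Markers of other cells moved with the IFN-γ label. Of 9 B-cell markers 8 were higher in both genotypes, Cd79a by 4.02 log2 in wild-type, and 1 was lower in wild-type. Of all genes 31.3% were called in wild-type and 7.77% in knock-in libraries. The sum of the B-cell markers was 134 to 1423 CPM with the label and 105 to 190 CPM without. Outside the 2 libraries that stand apart it was at most 356 CPM. Cd79a was at 4.92 to 311 CPM in libraries labelled IFN-γ and at 1.42 to 12.3 CPM in untreated ones. All 7 mast cell and basophil markers and 7 of 9 T and NK cell markers were higher in wild-type, against 0 and 4 in knock-in. The sums of the mast cell and basophil markers were 1.01 to 115 CPM with the label and 1.60 to 11.7 CPM without, and at most 43.4 CPM outside the 2 libraries that stand apart. Of 8 macrophage markers 3 were higher and 2 lower in wild-type, and 0 were called in knock-in. All 4 tested red cell markers were higher in both genotypes, and 4 of 5 resident macrophage markers in wild-type against 0 in knock-in. Of 4 tested neutrophil markers 0 were called in wild-type and 1 was lower in knock-in, and of 7 mesothelial and fibroblast markers 1 was lower in wild-type libraries, against 4 in the knock-in. The part of these cells in the pump and autophagy changes was not tested.

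Among related genes in wild-type libraries, beside 31.3% of all genes called, 0 of 18 mTORC1 genes were higher and 9 lower, with Lamtor3 (-0.23 ± 0.04), Lamtor1 (-0.29 ± 0.06) and Flcn (-0.20 ± 0.04) first. Of 28 further autophagy genes 2 were higher and 10 lower, led by Atg9b (-1.06 ± 0.16), Plekhm1, which tethers autophagosomes to lysosomes (-0.32 ± 0.07), and Tecpr1 (-0.51 ± 0.11). Of 11 pump assembly genes 2 were higher and 2 lower with that label: Ncoa7 (0.29 ± 0.07), Dmxl1 (0.30 ± 0.12), Tmem199 (-0.20 ± 0.05) and Rnasek (-0.55 ± 0.18). The pump isoforms Atp6v1g2 (-0.39 ± 0.12) and Atp6v0e2 (-0.68 ± 0.26) were lower.

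The genotypes differed in this response, and the difference itself was tested as an interaction (effect in knock-in libraries less that in wild-type). It was positive for all 17 pump genes and called for 8 (median 0.28 log2), and called for 8 of 31 autophagy genes (median 0.14), 0 of them negative, where 11.9% of all genes were called (6.36% higher, 5.58% lower). Among pump genes the smallest p-value was that of Tcirg1 (0.54 ± 0.12, adjusted p = 0.00327 by edgeR), followed by Atp6v0b (0.31 ± 0.07), Atp6v0e (0.31 ± 0.08) and Atp6v1f (0.29 ± 0.09). The others called were Atp6v0c, Atp6v1b2, Atp6v1c1 and Atp6v1e1. Among autophagy genes Gabarapl1 (0.44 ± 0.10, adjusted p = 0.00448), Map1lc3b (0.27 ± 0.06), Wipi2 (0.17 ± 0.04) and Atg14 (0.17 ± 0.05) came first, and Tfeb gave 0.40 ± 0.11. The 2 effects that enter it were -0.46 ± 0.08 and 0.08 ± 0.09 for Tcirg1 and -0.46 ± 0.07 and -0.02 ± 0.07 for Gabarapl1. Of the cell markers above, 6 of 9 B-cell, 4 of 9 T and NK cell and 5 of 7 mast cell and basophil markers had a negative interaction that was called. The interaction also uses the knock-in old untreated males, whose treatment labels conflict.

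Without the 2 libraries that stand apart the interaction was called for 8 pump and 8 autophagy genes, 0 of them negative, but not for the same pump genes. Atp6v1e1 no longer passed (0.18 ± 0.07, adjusted p = 0.0650 by edgeR) and Atp6v0d2 did (0.47 ± 0.12, adjusted p = 0.00824, against 0.66 ± 0.26 and 0.0874 with all libraries). The estimate of Atp6ap2 went from 0.03 to -0.05, so 16 of 17 were then positive, and that of Atp6v1b2 from 0.29 to 0.18. The pump count was not firm. It fell to between 3 and 5 when any 1 of 14 libraries was left out: knock-in young IFN-γ females 1 and 2, knock-in young IFN-γ males 3 and 4, knock-in young untreated males 3 and 4, knock-in old untreated male 4, wild-type IFN-γ females old 5 and young 1, wild-type young untreated female 5, wild-type old IFN-γ males 1 and 3, and wild-type untreated males old 2 and young 2. It rose to 13 without wild-type young IFN-γ female 2. With near-identical libraries of a group joined it was 2 pump and 3 autophagy genes (Tcirg1, Atp6v0b, Gabarapl1, Map1lc3b and Wipi2), and Atp6v1f also missed the threshold without knock-in old untreated male 4. Shares of all genes called under these settings are not given here, so neither the steady nor the shifted counts can be read as particular to the members.

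The genotype itself gave small differences. Averaged over the 8 strata, edgeR called 0 of 17 pump and 0 of 31 autophagy genes, where 1.16% of all genes were called, while 8 and 6 had an unadjusted p under 0.05 and DESeq2 called 2 and 1. All 17 pump estimates were above 0 in knock-in libraries, from 0.01 to 0.21 log2 with a median of 0.09 (standard errors 0.03 to 0.13), and of the autophagy genes 15 were above and 16 below 0. That pump mean joins strata of opposite sign. In old untreated females 16 of 17 pump estimates were negative (median -0.14), and in old untreated males 13 (median -0.09). The medians were 0.01 and 0.10 in young untreated females and males. With the IFN-γ label they were 0.12 and 0.23 in young and old females and 0.20 and 0.25 in young and old males. All contrasts of genotype share the same libraries as the interaction above, among them the knock-in old untreated males, whose treatment labels conflict. Between the sexes the genotype effect differed for 0 members by edgeR or DESeq2 (1 pump and 9 autophagy genes at an unadjusted p under 0.05), where 0% of genes were called.

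Within strata the genotype calls lay mostly in libraries labelled IFN-γ. In old IFN-γ males 3 pump genes (Atp6v0b, Atp6v1d, Atp6v1f) and 4 autophagy genes (Atg3, Gabarap, Gabarapl1, Sqstm1) were higher in knock-in libraries, where 6.64% of all genes were called (4.29% higher). Atp6v1d was at 115, 122, 124, 131 and 121 CPM in wild-type and at 139, 166, 162, 149 and 159 CPM in knock-in libraries (0.34 ± 0.08). Atp6v1f was at 108, 120.5, 113, 113 and 112 CPM in wild-type and at 138, 158, 153, 142 and 154 CPM in knock-in libraries (0.39 ± 0.10). In both the groups did not overlap. In old IFN-γ females Atp6v0c (0.38 ± 0.11) and Atp6v1f (0.37 ± 0.10) were higher and Wipi1 (-0.50 ± 0.13) was lower in knock-in libraries, where 5.81% were called (2.11% higher, 3.7% lower), and in young IFN-γ females Tcirg1 was higher (0.77 ± 0.21), where 6.74% were (2.95% higher). Among untreated libraries the 1 call was Calcoco1 in young females, at 57.2, 51.6 and 54.0 CPM in wild-type and at 43.7, 46.7, 43.4, 40.2 and 42.9 CPM in knock-in libraries (-0.32 ± 0.07), where 0.452% were called (0.217% lower). In the other 4 strata edgeR called 0 members of either list, with 0.0181% (old untreated females), 0.0135% and 0.149% (young untreated and IFN-γ males) and 0.00452% (old untreated males) of genes called. At an unadjusted p under 0.05 the pump counts there were 5, 1, 6 and 0 and the autophagy counts 14, 5, 1 and 1, and DESeq2 called 1 autophagy gene in old untreated females and 0 elsewhere.

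In these strata the counts rest on few libraries. Without wild-type IFN-γ females old 2 and young 1 the genotype calls summed over the 8 strata rose from 6 to 13 for the pump and from 6 to 12 for autophagy. With near-identical libraries joined they were 1 and 2. Shares of all genes called under these settings are not given here, so the shifts cannot be read as particular to the members.

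Interactions with the age label were also tested. For genotype by age, edgeR and DESeq2 called 0 members (1 pump and 0 autophagy genes at an unadjusted p under 0.05), where 0% of genes were called. For age by IFN-γ they called 0 members (2 and 6 at an unadjusted p under 0.05), where 0.497% were. The standard errors of these differences were 0.06 to 0.27 log2 for pump genes and 0.03 to 0.14 for autophagy genes. A difference can exceed its standard error and still miss the threshold, so the lack of calls does not show that the strata were alike.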

How the data were processed

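Polyadenylated RNA of 63 libraries was sequenced, and the authors deposited raw read counts per gene and FPKM values. STAR 2.7.9a, DESeq2 1.40.2 and the GRCm39 build are named per the submitters' processing notes. How reads were counted, on which annotation and strand, is not given in the sources used here, so overlapping and near-identical genes are uncertain.

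Counts of 22147 of 56748 genes passed edgeR's expression filter and held 99.992% of all counts. One edgeR 4.0.16 quasi-likelihood fit (R 4.3.3) with 16 group coefficients, TMM factors (0.886 to 1.233) and no replicate block served all contrasts. P-values were adjusted by Benjamini-Hochberg over all tested genes within a contrast, and calls were made at 0.05. Each SE is the log2 change divided by the root of F. On simulated counts of 19880 genes for the IFN-γ contrast in wild-type, 100% of changes of 1 and 97% of changes of 0.5 on the log2 scale were recovered, and 3.43% of calls were false. The simulated libraries were independent, with the same dispersion for all genes and no group differences but those added. None stood apart or was made near-identical to another, so these rates may not hold for the real libraries. CPM use TMM factors. FPKM, as deposited, served for comparing genes per length, without a test.

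Groups follow the titles. Library numbers follow the column names of the counts, which in some groups differ from the replicate numbers in the titles. For 3 knock-in old male libraries the title says untreated and another label says IFN-γ, and they were kept as untreated. They are the whole group of old untreated knock-in males. If the other label is right, that group was not untreated, and every contrast that uses it changes its meaning. No setting left this group out. Members and lists (other pump isoforms, pump assembly, mTORC1, further autophagy, IFN-γ-induced genes, and markers of macrophages, resident macrophages, B, T and NK cells, neutrophils, mast cells and basophils, mesothelium and fibroblasts, and red cells) were chosen with earlier results of these data known. Named genes were up to 4 pump and 4 autophagy members per direction in each mean contrast and up to 3 members per direction in each genotype stratum, by smallest adjusted p, members with a paralogue, and up to 3 genes per related list. Other members are named with their values to account for all 48. Alternatives were RLE factors, no filter on low counts, DESeq2 1.42.0, each library left out, 2 pairs of doubted libraries left out, near-identical libraries joined, a replicate block, and FPKM in place of CPM.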

Additional observations from a re-analysis of the deposited data

Results flagged for a closer look

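Each of 8 quantities was checked in every group with more than 3 libraries, all of which had 5, in 64 tests. In 4 of these tests a library lay far from the others. Chance alone gives about 1 in 20 in independent tests. These tests were not independent, as each single gene checked also enters a sum, so the number cannot be weighed against chance. Smaller groups, among them that of wild-type young IFN-γ female 1, could not be checked. The summed level of the pump genes was 4002 CPM in wild-type old IFN-γ female 2, against 6373 to 7259 in the rest of its group. In the same library Atp6v0a1 was at 58.5 CPM, against 165 to 194. That library had been picked for its lysosomal genes, so its low pump levels are no independent observation. The summed level of the autophagy genes was 3236 CPM in knock-in old IFN-γ female 3, against 3009 to 3074. Gabarapl1 was at 169 CPM in wild-type old untreated female 1, against 102 to 118.

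For 16 members the change with the IFN-γ label differed between the genotypes by the interaction test of edgeR, in each case higher in knock-in than in wild-type. The log2 differences of the pump genes were 0.54 for Tcirg1, 0.36 for Atp6v1c1, 0.31 for Atp6v0b and for Atp6v0e, 0.29 for Atp6v1b2 and for Atp6v1f, 0.28 for Atp6v0c and 0.22 for Atp6v1e1. Those of the autophagy genes were 0.44 for Gabarapl1, 0.40 for Tfeb, 0.28 for Atg13, 0.27 for Map1lc3b, 0.21 for Atg7, 0.17 for Atg14 and for Wipi2, and 0.16 for Calcoco1.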

How the results depend on the processing

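The counts of calls with the age label averaged over strata varied little when each library was left out in turn: 14 to 15 pump and 25 to 27 autophagy genes in wild-type, and 13 to 15 and 25 to 26 in knock-in. The same ranges were 14 to 17 and 12 to 19 for the IFN-γ label in wild-type, 0 to 1 and 0 to 1 in knock-in, 0 to 2 and 0 to 1 for genotype, 3 to 13 and 6 to 12 for genotype by IFN-γ, 0 and 0 for genotype by age and for genotype by sex, and 0 and 0 to 1 for age by IFN-γ. Summed over 8 strata they were 3 to 14 and 2 to 17 for genotype, 21 to 30 and 14 to 29 for the IFN-γ label, and 69 to 90 and 159 to 169 for the age label, against 6 and 6, 28 and 21, and 72 and 164 with all libraries.

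The counts with 1 library left out and those under other settings are of members only, without the share of all genes called. With RLE factors the counts were 1 pump gene for genotype, 5 for genotype by IFN-γ and 10 autophagy genes for genotype in strata. With DESeq2 they were 2 pump and 1 autophagy genes for genotype, and 11 and 14 for genotype in strata. Without the 2 libraries that stand apart they were 1 pump gene for the IFN-γ label in knock-in, 1 for genotype, and 13 pump and 12 autophagy genes for genotype in strata. Without the 2 libraries low in Xist, 5 pump genes were called for genotype by IFN-γ. Without the filter on low counts, 13 autophagy genes were called for the IFN-γ label in strata.

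No pair of libraries agreed within sampling noise. The closest differed by a chi-square per gene of 6.86, and 11 of 102 pairs under 20, a limit chosen after seeing the data, were joined, which left 52 libraries. Then 2 pump and 3 autophagy genes were called for genotype by IFN-γ, 10 autophagy genes for the IFN-γ label in wild-type, 1 and 2 for genotype in strata, and 11 and 12 for the IFN-γ label in strata. Joining leaves fewer libraries; otherwise the cause of these shifts was not tested.

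Same-numbered libraries correlated above 0.1 in 19 of 26 pairs between age labels, against 39 of 97 pairs of different numbers (median r 0.34 against -0.08). Between treatment labels the counts were 15 of 26 and 34 of 97 (0.18 against -0.08). Of 26 libraries, 14 and 12 correlated best with their own number, and the number due to chance was not counted. The labels tie the numbers to no animal or batch, so they were not taken as pairing. They may still mark something shared in part of the groups, which the p-values without a block ignore. With the replicate block 37 pump calls were made for the age label in strata, against 72. Of 49 named values 0 reversed under any alternative. Calls lost were Atp6v0d1 (age, knock-in) and Atg14 (interaction) under the block, Wipi1 (IFN-γ label) and Atp6v0e, Atp6v1f and Atg14 (interaction) on joining, Wipi1 without the 2 libraries that stand apart, and 5 of 3087 values with 1 library left out (4 of Wipi1, 1 of Atp6v1f). On the log2 scale the old to young ratio of medians was 0.69 by CPM and 0.68 by FPKM for Atp6v0c, -1.58 and -1.56 for Atp6v0a1, and -0.63 and -0.67 for Gabarapl1.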
